A study of Mus musculus with 40 samples.

Results

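The genes described here are 9 lipases and regulators of lipolysis, Pnpla2, Lipe, Mgll, Abhd5, G0s2, Lpl, Lipc, Lipg and Lipa, chosen by gene symbol from the count tables of a mouse liver RNA-Seq study. All 9 were found in both tables and all 9 were among the 12930 genes that were tested. The 40 livers came from male C57BL6/J mice aged 5 months, 20 wild type (WT) and 20 lacking PPARγ in hepatocytes (KO), with 4 groups of 5 mice in each genotype. The groups received control diet (control), control diet with pioglitazone (Pio), a high-fat diet (HFD) or that diet with pioglitazone (HFD-Pio). Pioglitazone is a thiazolidinedione, a drug that activates the nuclear receptor PPARγ. KO mice carried PPARγ-loxP alleles and the Alb-Cre transgene, whose albumin promoter drives Cre in hepatocytes, so that other liver cells keep the gene, and the WT mice are described as C57BL6/J controls, not as floxed littermates. The counts of the 2 genotypes were deposited as separate tables, so a difference in level between genotypes and one between tables cannot be told apart. Groups were therefore tested against each other within a genotype only. Between genotypes, only the effects of Pio or HFD were compared, not levels.

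Triglyceride in a lipid droplet is broken down in steps. Adipose triglyceride lipase (Pnpla2) removes the first fatty acid with the help of its activator Abhd5 and against its inhibitor G0s2, hormone-sensitive lipase (Lipe) acts on the diacylglycerol that remains, and monoacylglycerol lipase (Mgll) releases the last fatty acid. Lipoprotein lipase (Lpl), hepatic lipase (Lipc) and endothelial lipase (Lipg) act outside the cell on circulating lipoproteins. Lysosomal acid lipase (Lipa) hydrolyses cholesteryl esters and triglycerides inside lysosomes. Adult hepatocytes are known for abundant Lipc and for little Lpl, which is high in adipose tissue and muscle.

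WT libraries held 15788242 to 49857017 counts and KO libraries 21542958 to 28334251. Levels are given as CPM, counts scaled to a common library size after TMM normalization, and levels of different genes are compared only as CPM per kilobase of exon. Summed CPM of 8 hepatocyte markers lay between 74637 and 151795 in 39 livers. KO Pio mouse 13 stood apart from them with a sum of 33104. This mouse also had 144 CPM of 8 pancreatic acinar markers, against 6.54 to 11.4 in the other 4 KO Pio mice, and 549 CPM of 8 endothelial markers, against 351 to 416. Of the endothelial markers, Eng reached 360 CPM at its highest over the 40 mice, with a median of 78.4, and no other exceeded 104 CPM. A high endothelial sum can thus come from Eng alone. KO HFD mouse 10 had 751 CPM of the acinar markers, against 5.87 to 28.5 CPM in the other 4 KO HFD mice. On the first principal component of the KO mice, which held 56.9% of the variance, mouse 13 lay at 187 and the other 19 mice between -14.2 and -0.90. Results are therefore given for 40 mice and, without mouse 13, for 39. Pparg itself measured 5.77 to 14.1 CPM in WT mice and 3.00 to 9.85 CPM in KO mice. Its count adds up all exons, also those outside the deleted part, and therefore does not measure the deletion.

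With 40 mice, Lpl rose with Pio in WT and Pnpla2 and Lipe rose with Pio in KO mice, all on control diet, and Mgll rose with HFD in WT mice. The threshold for a call was an adjusted p of 0.05 (edgeR's quasi-likelihood F test, Benjamini-Hochberg adjustment over all genes tested). For Pio against control in WT mice, 1 of the 9 members was called, beside 3.89% of all genes. For HFD against control in WT mice, 1 of 9 was called, beside 1.31% of all genes. For Pio against control in KO mice, 2 of 9 were called, beside 9.06% of all genes. No member was called in the other 5 comparisons within a genotype, where edgeR called 1.08% of all genes for WT HFD-Pio against HFD, 1.26% for WT HFD-Pio against Pio, 0.0155% for KO HFD-Pio against HFD, 0.186% for KO HFD against control and 4.97% for KO HFD-Pio against Pio. In the same order 2, 4, 0, 1 and 3 members had an unadjusted p under 0.05 in these 5 comparisons. DESeq2 called 0 members in all 5, beside 2.85%, 3.02%, 0.0634%, 0.42% and 8.4% of all genes. Limma with sample weights, the method the study itself used, called 0, 4, 0, 0 and 1 members, beside 8.43%, 22.7%, 0.0%, 4.2% and 2.39% of all genes. In the first 3 comparisons DESeq2 called 1, 2 and 2 members, beside 6.43%, 2.98% and 11.3% of all genes, and limma with sample weights 4, 2 and 3, beside 23.9%, 2.53% and 9.4%.

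Mouse 13 is in no WT group, but the 8 groups share 1 estimate of the spread of each gene, and the SE of the WT Pnpla2 difference was 0.24 with and 0.17 without it. Without mouse 13, for WT Pio against control 3 of 9 members were called (Pnpla2, Lipe and Lpl, all higher), beside 15.5% of all genes. For WT HFD against control 2 of 9 were called (Mgll higher, Abhd5 lower), beside 6.55%. Abhd5 was the 1 member called for WT HFD-Pio against HFD, beside 11.7% of all genes, and for WT HFD-Pio against Pio, beside 8.68%. In KO mice no member was called by edgeR without mouse 13, beside 0.512% of all genes for Pio against control, 0.0% for HFD-Pio against HFD, 0.388% for HFD against control and 0.0931% for HFD-Pio against Pio. The numbers of members with an unadjusted p under 0.05 were 1, 0, 1 and 2 in that order. The median log2 fold change of the 9 members with 40 mice was 0.45 for WT Pio against control and 0.35 for WT HFD-Pio against HFD, beside -0.02 for all genes in both. In KO mice the same medians were 0.35 and 0.07, beside 0.03 and 0.00 for all genes.

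**Figure D1:**
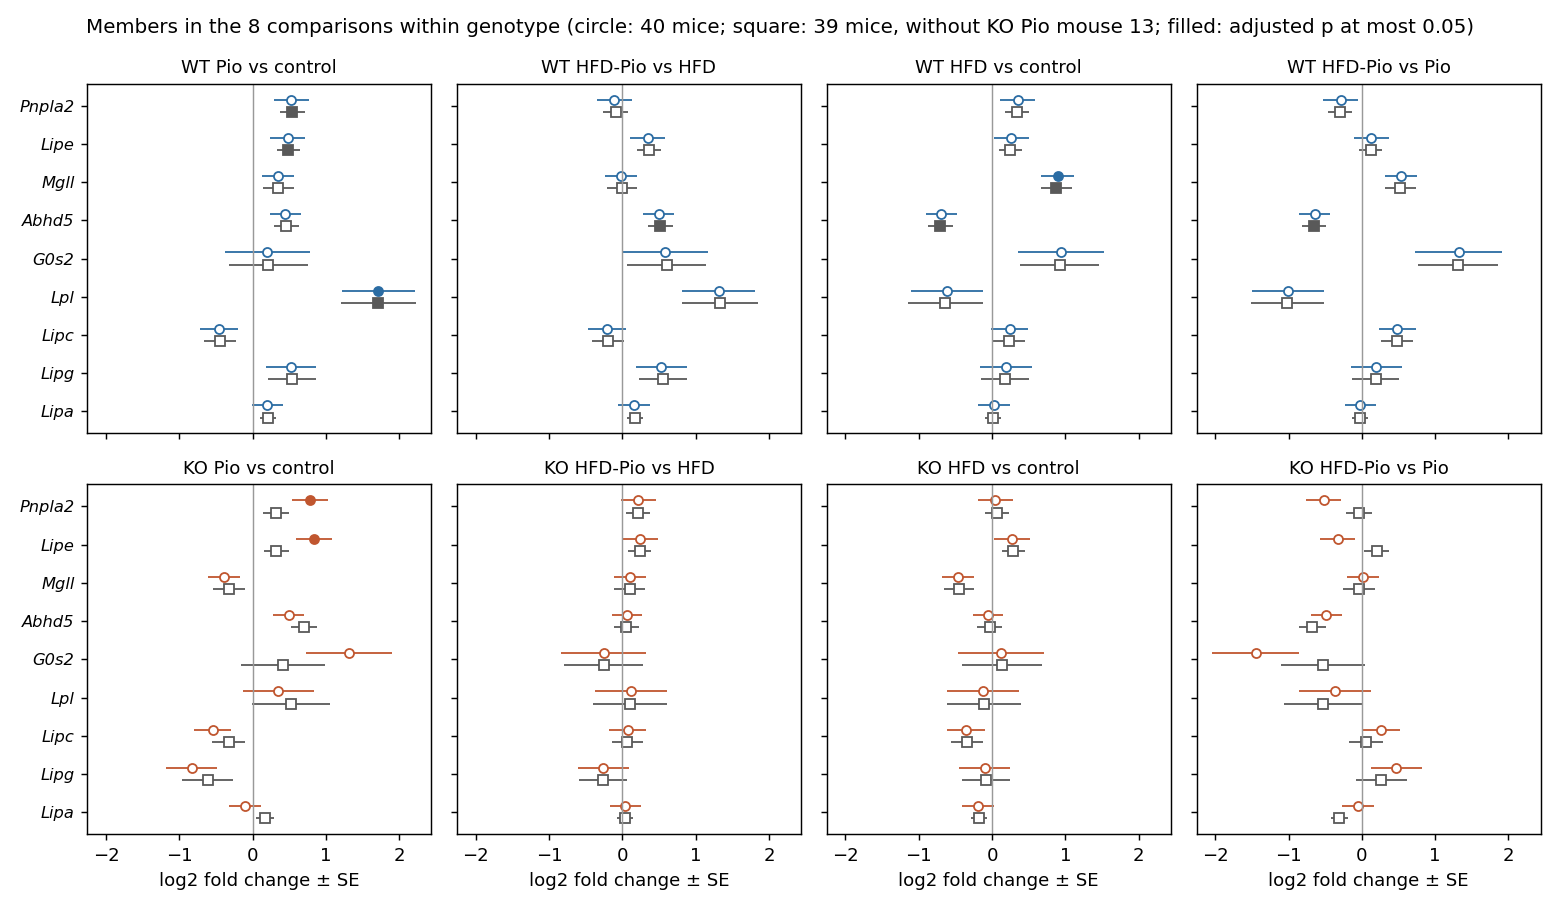
Log2 fold change (x axis) of each of the 9 members (y axis) in the 8 comparisons within genotype, with bars of 1 standard error. Circles are fits to 40 mice, squares fits without KO Pio mouse 13, and filled symbols have an adjusted p of at most 0.05. Filled circles mark Lpl in WT Pio, Mgll in WT HFD, and Pnpla2 and Lipe in KO Pio mice. The last pair moves from 0.78 and 0.84 to 0.32 and 0.32 without mouse 13.

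Pnpla2, whose gene lies at chr7:141455198-141460743 on the plus strand of GRCm38, was among the more abundant members. In WT control mice it measured 91.7, 130.5, 147, 167 and 172 CPM. In WT Pio mice the values were 144, 179.8, 192, 248 and 259 CPM. Of the 5 Pio mice, 4 lay above every control mouse, and the lowest Pio mouse lay among the controls. The means were 142 ± 32.6 and 204 ± 48.2 CPM (SD, n = 5 each), a log2 difference of 0.53 (SE 0.24) with an edgeR adjusted p of 0.228 with 40 mice. Without mouse 13 the log2 fold change was 0.54 (SE 0.17) and the edgeR adjusted p 0.0243. On HFD the corresponding means were 181 ± 58.6 without and 168 ± 15.2 CPM with Pio (SD, n = 5 each), a log2 difference of -0.11. The Pio effect on HFD minus that on control diet was -0.64 (SE 0.34, edgeR adjusted p = 0.451) with 40 mice. Without mouse 13 it was -0.64 (SE 0.24, adjusted p = 0.0999), so it was not called with either set.

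In KO mice Pnpla2 measured 64.7, 69.8, 78.1, 80.6 and 84.8 CPM on control diet. The KO Pio mice had 86.1, 92.4, 93.5 and 99.3 CPM, and mouse 13 had 279.6 CPM. All 5 KO Pio mice thus lay above all 5 KO control mice (two-sided exact permutation p = 0.00794, the smallest that 5 mice against 5 can give). In this comparison 3.70% of all genes separated the groups in either direction. The permutation test is 1 of 72 such tests of single members, and their p values are not adjusted. With mouse 13 the log2 fold change was 0.78 (SE 0.24, edgeR adjusted p = 0.0382), and without it 0.32 (SE 0.18, edgeR adjusted p = 0.565). Limma with sample weights, which lowers the weight of libraries that stand apart, gave a log2 fold change of 0.35 with 40 mice and an adjusted p of 0.0289 (Benjamini-Hochberg). On HFD the KO means were 78.1 ± 11.2 without and 90.8 ± 16.3 CPM with Pio (SD, n = 5 each), and their ranges overlapped. The difference between the KO and the WT effect of Pio on control diet was 0.26 on the log2 scale with 40 mice (edgeR adjusted p = 0.650) and -0.23 without mouse 13 (adjusted p = 0.654).

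Lipe, at chr7:25379527-25398710 on the minus strand, was low in liver, with 3.28 CPM per kilobase on average over WT mice against 57.5 for Pnpla2. WT control mice had 11.8, 14.1, 15.2, 16.9 and 17.2 CPM of Lipe. WT Pio mice had 17.7, 19.4, 20.9, 21.6 and 25.4 CPM. All 5 Pio values lay above all 5 control values (exact permutation p = 0.00794, two-sided, 1 of the 72 tests), and 7.53% of all genes separated these groups in either direction. For Pio against control the log2 fold change was 0.48 (SE 0.24, edgeR adjusted p = 0.295) with 40 mice and 0.49 (SE 0.16, adjusted p = 0.0301) without mouse 13. On HFD, WT mice had 12.7, 13.3, 13.8, 22.1 and 28.5 CPM, and with Pio a narrow range of 21.5 to 25.5 CPM. Here 3 HFD mice lay below all HFD-Pio mice, 1 among them and 1 above them, and the log2 difference of 0.35 did not pass the test with either set of mice.

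KO control mice had 8.45 to 11.8 CPM of Lipe. KO Pio mice had 10.2, 11.9, 13.7 and 15.8 CPM, and mouse 13 had 41.9 CPM. The groups overlapped in the lowest Pio mouse. Pio against control gave a log2 fold change of 0.84 (SE 0.24, edgeR adjusted p = 0.0312) with mouse 13 and 0.32 (SE 0.17, adjusted p = 0.508) without it, and limma with sample weights gave 0.41 (adjusted p = 0.0266) with 40 mice. The effect of Pio on control diet differed between KO and WT mice by 0.36 on the log2 scale with 40 mice (edgeR adjusted p = 0.515) and by -0.17 without mouse 13 (adjusted p = 0.742). KO HFD mice had 10.5 to 14.8 CPM and KO HFD-Pio mice 12.7 to 17.1 CPM. Of the exon bases of Lipe, 15.6% overlap the antisense gene 4732471J01Rik. Whether the counting used the strand is not given in the sources used here. Only reads that matched 1 gene were counted. Without the strand, reads in that stretch would be left out if the annotation used held both genes, so Lipe may be undercounted there.

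**Figure D2:**
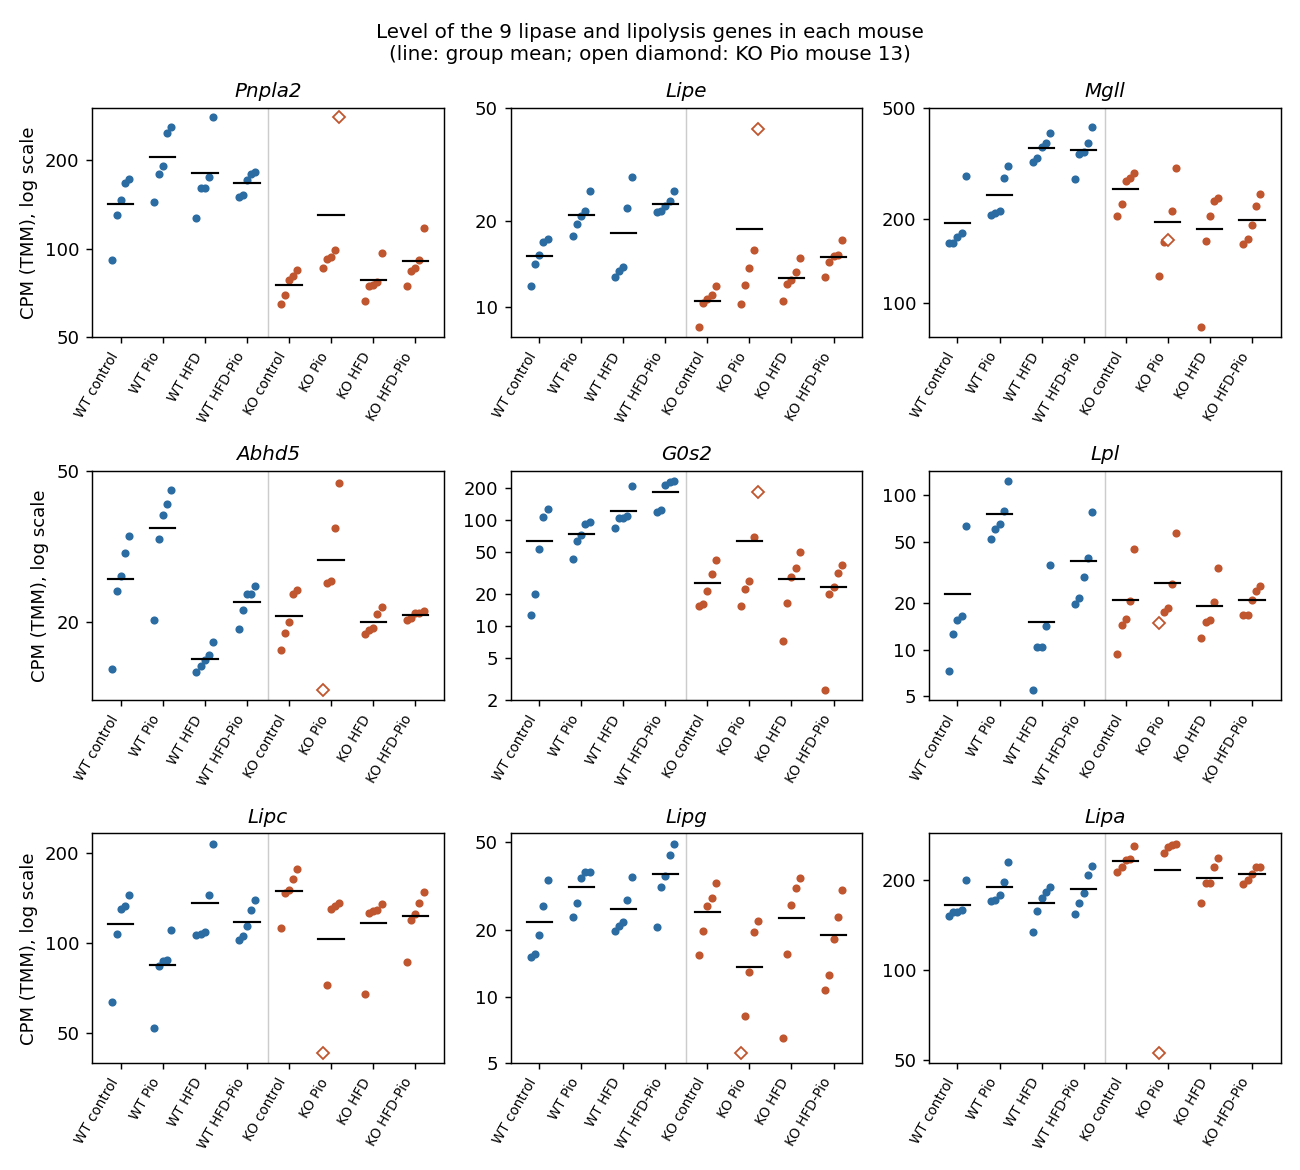
CPM after TMM normalization (y axis, log scale) of each member in each of the 40 mice (points) in the 8 groups (x axis), WT in blue and KO in orange, with the group mean as a line and KO Pio mouse 13 as an open diamond. Mouse 13 is above the other 19 KO mice for Pnpla2, Lipe and G0s2 and below all of them for Abhd5, Lipc, Lipg and Lipa.

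Mgll, at chr6:88724412-88828360 on the plus strand, was the member that rose with HFD in WT mice. WT control mice had 164, 164, 173, 179 and 285 CPM. WT HFD mice had 319.9, 331, 361, 374 and 404 CPM. All 5 HFD mice lay above all 5 control mice, also above control mouse 831, whose 285 CPM stood apart from its group. HFD against control gave a log2 fold change of 0.89 (SE 0.22), a 1.86-fold rise, with an edgeR adjusted p of 0.0275, and 0.88 (SE 0.21, adjusted p = 0.0106) without mouse 13. The exact permutation p was 0.00794 (two-sided, 1 of the 72 tests), and 3.05% of all genes separated these groups completely. The call was lost when HFD mouse 828, 829 or 830 or control mouse 832, 833, 834 or 835 was left out, with log2 fold changes between 0.82 and 1.05 over all mice left out in turn. With Pio the WT means were 244 ± 48.1 CPM on control diet and 353 ± 54.2 on HFD (SD, n = 5 each). That log2 difference of 0.53 (SE 0.22) had an edgeR adjusted p of 0.241, and 4 of the 5 HFD-Pio mice lay above all Pio mice. Of the exon bases of Mgll, 3.29% overlap the antisense gene Gm26588.

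In KO mice Mgll lay the other way round. KO control mice had 205, 226, 272, 281 and 292 CPM. KO HFD mice had 82.1, 167, 206, 231 and 237 CPM. The ranges overlapped, and the log2 fold change of -0.47 (SE 0.22) had an unadjusted edgeR p of 0.0388 and an adjusted p of 1.00. The HFD effect without Pio was thus 1.36 lower in KO than in WT mice on the log2 scale (difference of -1.36, SE 0.31), with an edgeR adjusted p of 0.0707 over 40 mice, where 0 of 9 members and 0.0619% of all genes were called. Without mouse 13 this difference was -1.33 (SE 0.30, adjusted p = 0.0263), and Mgll was the 1 member called, beside 1.06% of all genes. DESeq2 and limma with sample weights each called it with 40 mice, beside 0.721% and 1.43% of all genes, and over all alternatives the adjusted p ranged from 0.00634 to 0.160. Mouse 9, the lowest KO HFD mouse for Mgll, also had the lowest Lipc and Lipg of that group and 855 CPM of 8 macrophage markers, against 379 to 467 in the other 4 mice. The part of that mouse's other cells in these values was not tested.

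Abhd5, the activator of Pnpla2, lies at chr9:122351608-122381524 on the plus strand. WT HFD mice had 14.8, 15.4, 15.9, 16.4 and 17.7 CPM, the narrowest of the WT groups. WT control mice had 15.0, 24.1, 26.5, 30.4 and 33.6 CPM, so that all control mice except mouse 832 lay above the HFD mice. The log2 fold change of HFD against control was -0.69 (SE 0.21), with an edgeR adjusted p of 0.0878 with 40 mice. It was -0.71 (SE 0.17, adjusted p = 0.0120) without mouse 13, and DESeq2 and limma with sample weights called it with 40 mice. With Pio the order was the same. WT Pio mice had 20.3, 33.1, 38.2, 40.9 and 44.4 CPM and WT HFD-Pio mice 19.2, 21.6, 23.7, 23.7 and 24.8 CPM, a log2 difference of -0.64 (SE 0.21, edgeR adjusted p = 0.113) with 40 mice and -0.65 (SE 0.17, adjusted p = 0.0150) without mouse 13.

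Pio itself went with higher Abhd5 on both diets in WT mice. On HFD the 5 Pio-treated mice lay above all 5 untreated mice, as 7.13% of all genes did in either direction (exact permutation p = 0.00794, two-sided, 1 of the 72 tests). The difference on the log2 scale was 0.50 (SE 0.21, edgeR adjusted p = 0.235) with 40 mice and 0.52 (SE 0.17, adjusted p = 0.0446) without mouse 13. On control diet it was 0.45 (SE 0.21) and 0.46 (SE 0.17), with edgeR adjusted p values of 0.237 and 0.0568. In KO mice Abhd5 measured 16.9 to 24.3 CPM on control diet and 25.3, 25.7, 35.2 and 46.4 CPM with Pio. These 4 lay above all KO control mice, and mouse 13, with 13.3 CPM, lay below all of them. Their log2 fold change was 0.49 (SE 0.21, edgeR adjusted p = 0.115) with mouse 13 and 0.70 (SE 0.18, adjusted p = 0.0577) without it, and limma with sample weights gave 0.66 (adjusted p = 0.00156) with 40 mice. On HFD the KO values were 18.6 to 22.0 without and 20.2 to 21.4 CPM with Pio. Of the exon bases of Abhd5, 16.0% overlap the antisense gene A730085K08Rik, with the same limit as for Lipe.

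G0s2, the inhibitor of Pnpla2, is a short gene at chr1:193272161-193273217 on the minus strand, and per kilobase it was the highest member in WT mice, with 126 CPM per kilobase on average. It varied widely within groups. WT control mice had 12.5, 20.0, 52.9, 105 and 126 CPM, a spread within 1 group as wide as most differences between groups. WT HFD mice had 83.8, 103, 103, 109 and 207 CPM. WT Pio mice had 42.9 to 94.5 CPM and WT HFD-Pio mice 119, 122, 211, 225 and 232 CPM. The last 2 groups did not overlap, like 6.48% of all genes (exact permutation p = 0.00794, two-sided, 1 of the 72 tests), but the log2 fold change of 1.32 (SE 0.59) had an edgeR adjusted p of 0.288, and of 0.119 without mouse 13. In KO mice G0s2 ranged from 2.48 to 68.1 CPM over 19 mice, and mouse 13 had 181 CPM. For KO Pio against control the log2 fold change was 1.32 (SE 0.59, edgeR adjusted p = 0.142) with mouse 13 and 0.41 without it.

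Per kilobase, the ratio of G0s2 to Pnpla2 transcript had group medians of 1.25 in WT control, 0.957 in Pio, 2.28 in HFD and 4.07 in HFD-Pio livers. The ranges were 0.777 to 2.28 in WT Pio and 2.32 to 5.19 in WT HFD-Pio mice and did not overlap, as the G0s2 values alone did not. In WT control mice the ratio ran from 0.259 to 2.79. The KO group medians lay between 1.06 and 1.32. The ratio of Abhd5 to Pnpla2 went the other way with diet, with medians of 0.0913 in WT control and 0.0510 in WT HFD mice, and these ranges (0.0710 to 0.130 and 0.0278 to 0.0633) did not overlap. With Pio the WT ranges of this ratio overlapped (0.0416 to 0.135 on control diet and 0.0608 to 0.0798 on HFD), and the KO medians were 0.126 in control and 0.127 in HFD mice. These ratios of transcripts are descriptions and were not tested, and how often ratios of other genes separate these groups was not computed. Of single genes, 6.48% separated WT HFD-Pio from Pio mice and 3.05% WT HFD from control mice, in either direction.

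**Figure D3:**
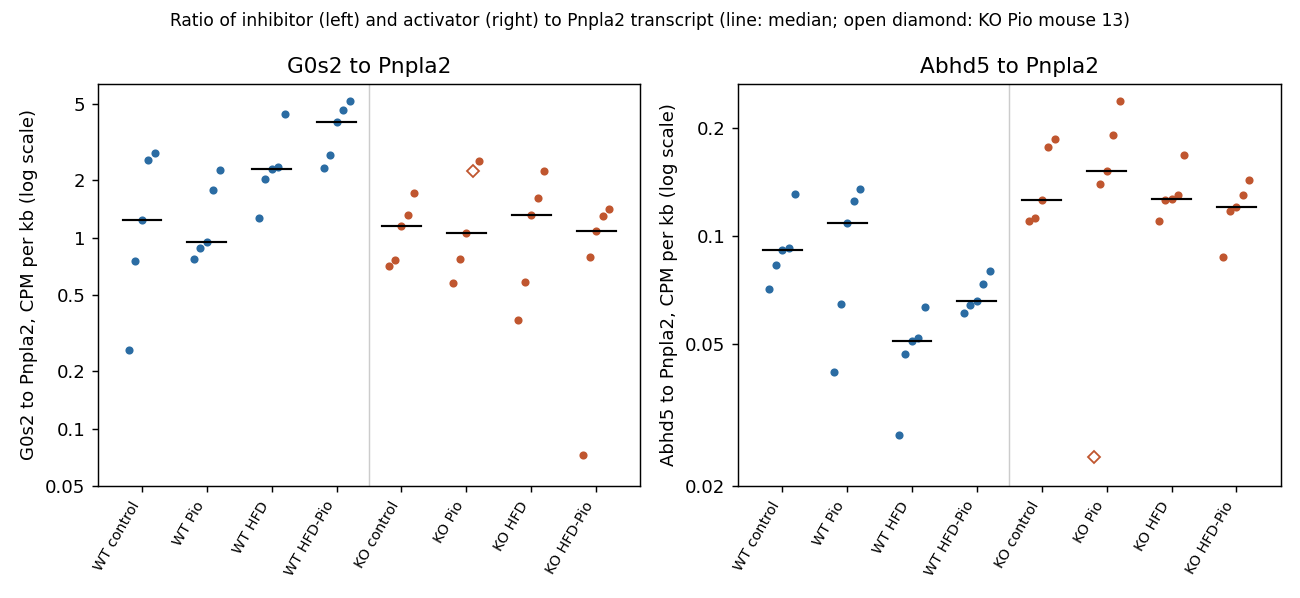
Ratio of G0s2 (left) and of Abhd5 (right) to Pnpla2, both in CPM per kilobase (y axis, log scale), in each mouse of the 8 groups (x axis), WT in blue and KO in orange, with the group median as a line and KO Pio mouse 13 as an open diamond. In WT mice G0s2 to Pnpla2 has its highest median, 4.07, in HFD-Pio, and Abhd5 to Pnpla2 its lowest, 0.0510, in HFD.

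Lpl, at chr8:68880491-68907448 on the plus strand, showed the largest log2 difference with Pio among the members in WT mice. WT control mice had 7.24, 12.6, 15.5, 16.6 and 63.4 CPM. WT Pio mice had 51.8, 60.4, 65.0, 78.6 and 123 CPM. The groups overlapped only through control mouse 832, and 3 of the 5 Pio mice lay above every control mouse. The means were 23.1 ± 22.8 and 75.9 ± 28.3 CPM (SD, n = 5 each), a log2 fold change of 1.72 (SE 0.50), or 3.29-fold, with an edgeR adjusted p of 0.0422, and of 0.0202 without mouse 13. Without control mouse 832 the log2 fold change was 2.55 and the adjusted p 2.24e-05. The adjusted p passed 0.05 when any of the other 4 control mice, Pio mouse 842, 843, 844 or 845, WT HFD-Pio mouse 837 or 839, KO HFD mouse 7 or 10 or KO HFD-Pio mouse 16 was left out. Over all alternatives it reached at most 0.130, with log2 fold changes from 1.46 to 2.55.

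On HFD, WT mice had 5.50, 10.4, 10.4, 14.1 and 35.2 CPM of Lpl without Pio and 19.7, 21.4, 29.6, 39.2 and 78.1 CPM with it. Apart from HFD mouse 827, with 35.2 CPM, the untreated mice lay below all treated ones. The log2 fold change was 1.32 (SE 0.50), with an edgeR adjusted p of 0.181 with 40 mice and 0.0838 without mouse 13. WT HFD-Pio against Pio gave a log2 fold change of -1.01 (SE 0.49), and 4 of the 5 HFD-Pio mice lay below all Pio mice. Its edgeR adjusted p was 0.344 with 40 mice and 0.198 without mouse 13. Limma with sample weights called it with 40 mice, beside 22.7% of all genes. The Pio effect on HFD minus that on control diet was -0.40 (SE 0.69, edgeR adjusted p = 0.870). With 40 mice edgeR called 0 of 9 members for this difference in WT mice, beside 0.0773% of all genes, and 0 of 9 for the same difference in KO mice, beside 0.0% of all genes, with 0 members at an unadjusted p under 0.05 in both. DESeq2 called 0 members in both, beside 1.19% and 0.0% of all genes, and limma with sample weights 0 in both, beside 10.7% and 0.402%. Without mouse 13 edgeR called 0 of 9 in both, beside 5.26% and 0.0% of all genes. In each, 1 member had an unadjusted p under 0.05, Pnpla2 in WT and Abhd5 in KO mice.

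In KO mice Lpl measured 9.34, 14.5, 15.7, 20.6 and 44.9 CPM on control diet and 14.9, 17.6, 18.6, 26.5 and 56.8 CPM with Pio. The KO groups overlapped almost fully, with a log2 fold change of 0.35 (SE 0.49). On HFD the values were 11.8 to 33.5 CPM without and 16.8 to 25.8 CPM with Pio, a log2 fold change of 0.12 (SE 0.49). The KO minus WT difference in the Pio effect was -1.36 (SE 0.69, edgeR adjusted p = 0.197) on control diet and -1.20 (SE 0.70, adjusted p = 0.874) on HFD. Without WT control mouse 832 the difference on control diet was -2.20 and was called by edgeR. For these differences edgeR called 0 of 9 members with 40 mice, beside 7.91% of all genes on control diet and 0.0928% on HFD. On control diet 2 members (Mgll and Lipg) had an unadjusted p under 0.05, DESeq2 called 1 (Lipg), beside 11.0% of all genes, and limma with sample weights called 1 (Lpl, adjusted p = 0.00642), beside 15.4%. On HFD all 3 counts were 0, beside 0.206% of all genes for DESeq2 and 2.81% for limma. Without mouse 13 edgeR called 0 of 9 in both, beside 5.78% and 0.163% of all genes, with 2 and 0 members at an unadjusted p under 0.05.

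Lpl was set beside markers of adipocytes, in which it is abundant. The summed CPM of 8 adipocyte markers was 18.4 to 31.9 in WT control and 154 to 659 in WT Pio mice, 20.6 to 101 in WT HFD and 131 to 677 in WT HFD-Pio mice, and 13.1 to 46.2 in the 20 KO mice. Of these markers, Cfd, Cidea and Fabp4 reached 469, 252 and 192 CPM, and these genes are also known as targets of PPARγ. Adrb3 measured 5.91 to 39.5 CPM, and Retn did not exceed 4.74 CPM. Adipoq did not exceed 0.667 CPM and was at 0 in 10 mice, Plin1 did not exceed 2.15 CPM and was at 0 in 16, and Lep did not exceed 0.164 CPM and was at 0 in 27. The part of adipocytes in the marker sum and in the Lpl values was not tested. WT control mouse 832, with its high Lpl, had an adipocyte sum of 18.4 CPM, the lowest of its group, and 673 CPM of 8 stellate cell markers, against 211 to 241 in the other 4 control mice. KO Pio mouse 12, with the highest Lpl of the KO mice, had an adipocyte sum of 43.6 CPM. Macrophages also make Lpl, and their 8 markers summed to 263 to 606 CPM in WT control and 168 to 476 CPM in WT Pio mice. In these bulk samples, more or fewer cells of a type and more or less RNA per cell cannot be told apart.

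**Figure D4:**
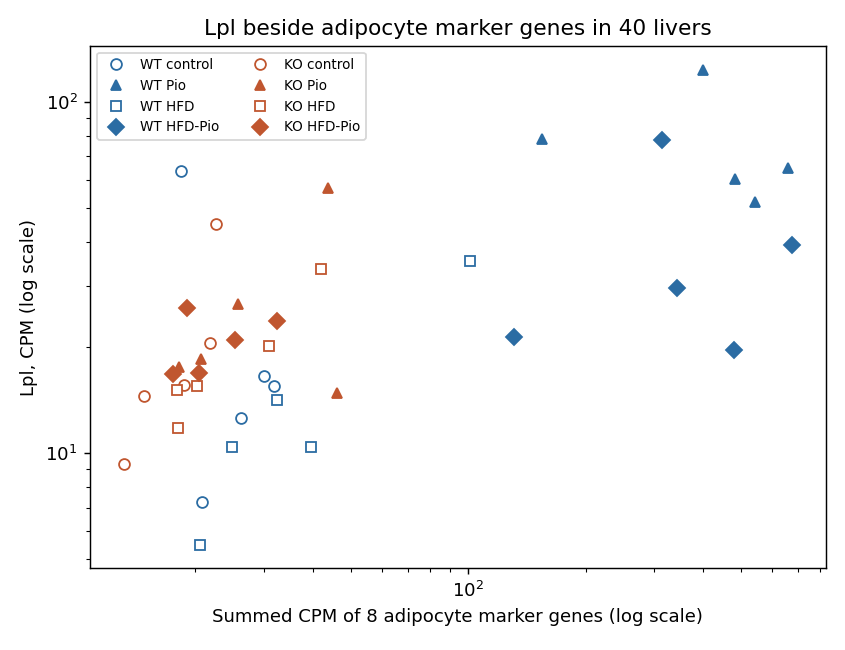
Lpl in CPM (y axis, log scale) against the summed CPM of 8 adipocyte markers (x axis, log scale) in 40 livers, with WT in blue, KO in orange, and filled symbols for groups given Pio. The 10 WT mice given Pio have marker sums from 131 to 677 CPM, above every other mouse, and Lpl from 19.7 to 123 CPM. The highest markers in the sum, Cfd, Cidea and Fabp4, are also known as PPARγ targets.

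Lipc, at chr9:70798128-70952226 on the minus strand, was the member that lay lower with Pio on control diet in both genotypes. WT means were 116 ± 32.3 CPM in control and 84.3 ± 20.9 CPM in Pio mice (SD, n = 5 each), with a log2 fold change of -0.46 (SE 0.26, edgeR adjusted p = 0.357). Lipc and Lpl ranked against each other over the 20 WT mice (Spearman's rho = -0.71) and over 19 KO mice without mouse 13 (rho = -0.53), a description over mice that share the 4 groups. KO control mice had 112 to 177 CPM and KO Pio mice 72.1, 129.6, 133 and 137 CPM, with mouse 13 at 42.7 CPM. The log2 fold change was -0.54 (SE 0.26, adjusted p = 0.159) with mouse 13 and -0.33 (SE 0.23, adjusted p = 0.716) without it. HFD-Pio means were 118 ± 15.8 CPM in WT and 123 ± 23.4 CPM in KO mice (SD, n = 5 each). EdgeR called Lipc in none of the comparisons with 40 or 39 mice, and limma with sample weights called it for WT Pio against control and WT HFD-Pio against Pio.

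Lipg (ENSMUSG00000053846) lay higher with Pio in WT mice and lower in KO mice on control diet. WT control mice had 15.1, 15.6, 19.1, 25.8 and 33.9 CPM and WT Pio mice 23.0, 26.6, 34.3, 36.7 and 36.7 CPM. KO control mice had 15.5, 19.7, 25.7, 28.0 and 32.6 CPM, and KO Pio mice 5.56 (mouse 13), 8.19, 12.9, 19.6 and 22.1 CPM. The groups overlapped in both genotypes. The log2 fold changes were 0.53 (SE 0.35) in WT and -0.83 (SE 0.35) in KO mice, with edgeR adjusted p values of 0.463 and 0.117. Without mouse 13 the KO value was -0.61 (SE 0.35, adjusted p = 0.582). The KO minus WT difference was -1.35 (SE 0.49, adjusted p = 0.0761) with 40 mice, and -1.15 (SE 0.48, adjusted p = 0.157) without mouse 13. DESeq2 called this difference with 40 mice, and over all alternatives the adjusted p ranged from 0.0322 to 0.157.

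Lipa, at chr19:34492318-34527474 on the minus strand, had the lowest coefficient of variation in both genotypes, 14.1% over 20 WT and 21.5% over 20 KO mice. WT group means lay between 164 ± 19.9 CPM in control and 189 ± 25.0 CPM in Pio mice (SD, n = 5 each). KO group means without mouse 13 lay between 203 ± 26.4 CPM in HFD and 257 ± 8.07 CPM in Pio mice (n = 5 and 4). Mouse 13 had 52.8 CPM, 0.205 times the mean of the other 4 KO Pio mice. Log2 fold changes of Lipa in the 8 comparisons with 40 mice lay between -0.19 and 0.20, with SEs of 0.22, and none was called. Without mouse 13 the SEs in WT mice were 0.11 and again none was called, but KO Pio against control went from -0.10 to 0.17 (SE 0.12) and KO HFD-Pio against Pio from -0.05 to -0.31 (SE 0.12, edgeR adjusted p = 0.604).

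Since PPARγ binds DNA with RXR at direct repeats spaced by 1 base, the promoters of the members were searched for that motif (AGGTCA repeated with any 1 base between, both strands). RefSeq windows of GRCm38.p6, from 250 bases before to 50 bases after a start, were searched for 7 of the 9 members (not Lpl or Lipg), in 10 windows. The closest match was at the downstream start of Lipc, with 2 mismatches. Matches with 2 or fewer were found in 3.86% of 32851 such mouse windows. That share is for a single window, while the Lipc match is the best of the 10 searched, so it does not show a rare match. Windows of Lipe (downstream start) and G0s2 each held a match with 3 mismatches, as did 24.6% of all windows when matches of 3 or fewer are counted. These closest matches are shown with the 13 motif bases in capitals, on the strand of the gene, and a match of letters is no evidence of binding.
Lipc, chr9:70934811-70934837 (minus strand): ttgattcTGAACTATGAGCTtggctca
Lipe, chr7:25390226-25390252 (minus strand): aaggagtTGAACTCTGGGCTctgttta
G0s2, chr1:193273162-193273188 (minus strand): tgcagtcAGGGCTCAGGCCAgtgagcc
The best windows of Pnpla2, Mgll, Abhd5 and Lipa differed from the motif at 4 or 5 bases.

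Other genes of lipid breakdown were taken from 7 lists. Of 16 tested genes for droplet partners, 3 rose and 0 fell in WT Pio against control and 3 rose and 0 fell in WT HFD-Pio against HFD (edgeR, 40 mice), beside 3.89% and 1.08% of all genes called in either direction. They were the same 3 in both, the droplet proteins Cidea, Cidec and Plin4. Cidea is also among the adipocyte markers. Cidea went from 0.581 ± 0.309 to 136 ± 83.8 CPM on control diet (SD, n = 5 each, log2 fold change 7.89, SE 0.60) and Cidec from 15.3 ± 16.2 to 90.3 ± 22.7 CPM (2.56, SE 0.39). With HFD against control in WT mice Plin4 and Acsl1, an acyl-CoA synthetase, rose (log2 fold changes 1.10 and 1.08, beside 1.31% of all genes called), and Pnpla3, a relative of Pnpla2, fell from 57.5 ± 63.4 to 2.36 ± 0.857 CPM (log2 fold change -4.60, SE 0.72). In KO mice Pnpla3 rose with Pio on control diet from 3.71 ± 4.74 to 33.2 ± 18.6 CPM (log2 fold change 3.15, SE 0.67), also without mouse 13 (3.27, edgeR adjusted p = 0.0215). Of 17 other lipase genes 5 could be tested, and 1 of them, Pnpla5, rose with Pio in KO mice on control diet, beside 9.06% of all genes called. It is another relative of Pnpla2 and went there with Pnpla3 (log2 fold change 3.52, SE 0.73), at levels of 0.292 ± 0.449 and 3.45 ± 2.28 CPM. Pnpla5 was lower with HFD in WT mice, without Pio (log2 fold change -4.79, SE 0.98) and with it (-4.41, SE 0.77). In KO mice it was lower in HFD-Pio than in Pio mice (-3.76, SE 0.74). EdgeR called each with 40 mice, beside 1.31%, 1.26% and 4.97% of all genes. Pnpla3 was called lower in the same comparisons.

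Of 22 genes for lipoprotein lipase maturation, transport and inhibition, 1 rose and 0 fell in WT Pio against control, beside 3.89% of all genes. This was Vldlr, the VLDL receptor, from 5.05 ± 2.02 to 17.0 ± 5.15 CPM (log2 fold change 1.75, SE 0.43, edgeR adjusted p = 0.0153). On HFD edgeR called 0 of 22 with 40 mice, with 2 at an unadjusted p under 0.05, beside 1.08% of all genes called. DESeq2 called 1 and limma 4, beside 2.85% and 8.43% of all genes. Angptl4, an inhibitor of lipoprotein lipase, was higher in WT HFD-Pio than in WT Pio mice (155 ± 21.0 against 80.5 ± 16.2 CPM, log2 fold change 0.94, SE 0.21). In KO mice 3 of 22 rose and 1 fell with Pio on control diet, beside 9.06% of all genes, and edgeR called 0 of 22 without mouse 13, beside 0.512% of all genes, with 7 at an unadjusted p under 0.05. Angptl8, which acts with related proteins against lipoprotein lipase, had a log2 fold change of 2.55 there, and of 2.00 (edgeR adjusted p = 0.0780) without mouse 13.

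Of 15 genes that control lipolysis through cyclic AMP, 2 rose and 0 fell in WT Pio against control (beside 3.89% of all genes), Adcy6 (adenylyl cyclase, log2 fold change 0.97, SE 0.18) and Prkaca (catalytic subunit of protein kinase A, 0.41, SE 0.10). On HFD 1 of 15 rose, Pde3b, a phosphodiesterase that breaks down cyclic AMP (0.60, SE 0.14), beside 1.08% of all genes called. Without mouse 13 the numbers were 6 and 3 of 15, all higher, beside 15.5% and 11.7% of all genes. Of 11 carboxylesterases, 3 fell with Pio in KO mice on control diet with 40 mice (Ces1b, Ces1g and Ces3a, beside 9.06% of all genes). Without mouse 13, edgeR called 1 of them, Ces1b (log2 fold change -0.63, adjusted p = 0.0443), beside 0.512% of all genes. Ces1b was also called in HFD-Pio against Pio with 40 mice, where it was higher. The log2 fold changes were 0.87 in WT and 1.10 in KO mice (edgeR adjusted p = 0.0170 and 0.00978), beside 1.26% and 4.97% of all genes called. In WT Pio against control edgeR called 0 of 11 with 40 mice, with 3 at an unadjusted p under 0.05, beside 3.89% of all genes called. DESeq2 called 2 and limma 5 there, beside 6.43% and 23.9% of all genes. Without mouse 13, 1 rose and 2 fell in edgeR, beside 15.5%. Several carboxylesterases are close paralogs, and their counts are uncertain to the extent that reads matched more than 1 of them. Of 15 genes for lysosomal lipid breakdown edgeR called 0 in WT Pio against control, with 1 at an unadjusted p under 0.05, DESeq2 0 and limma 1. The shares of all genes called were 3.89%, 6.43% and 23.9% in that order of methods. In WT HFD-Pio against Pio edgeR called Galc of this list, which was lower (log2 fold change -0.64, SE 0.16, adjusted p = 0.0419), beside 1.26% of all genes. Of 8 other hydrolases of mono- and diacylglycerol edgeR called 0 in WT HFD-Pio against HFD, with 3 at an unadjusted p under 0.05, DESeq2 1 and limma 4. The same methods called 1.08%, 2.85% and 8.43% of all genes there. Without mouse 13, 5 of these 8 rose there, beside 11.7% of all genes, and their median log2 fold change was 0.44, beside 0.00 for all genes. Each list is described in some of the comparisons only, so the lists cannot be ranked against each other.

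For each member the genes with the most similar ranking over the 20 WT mice were sought among the 9270 more abundant genes (mean of 5 CPM or more over 40 mice). Lipe ranked most like Gys2, liver glycogen synthase (Spearman's rho = 0.93), and Lipc most like Mettl26 (0.93). Over 20 KO mice the same pairs had rho values of -0.16 and 0.40, and over 19 KO mice without mouse 13 they were -0.02 and 0.64. The mice share 4 groups within each genotype, and the WT values were chosen as the highest of 9270, so they are descriptions only. Among the members themselves, Mgll and G0s2 had a rho of 0.70 over WT mice and 0.43 over the 19 KO mice.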

How the data were processed

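The authors selected poly-A RNA from liver, aligned reads to GRCm38 (Ensembl release 76) with STAR 2.0.4b and used featureCounts 1.4.5 to count, for each gene, reads that aligned once and to 1 gene only. The deposited values are raw counts, 1 column per mouse and 1 table per genotype, and 0 columns were left without a sample. Per the labels each mouse is a separate animal. The 598 and 574 repeated lines (KO and WT table) were identical copies and were dropped, the 40594 shared genes were joined and 353 rRNA genes removed. The 12930 genes reaching 1 CPM in 5 or more of 40 mice were fitted in R 4.3.3 with edgeR 4.0.16 (TMM, 8 group means, robust quasi-likelihood F test, Benjamini-Hochberg adjustment within each of 13 comparisons). Limma 3.58.1 and DESeq2 1.42.0 served as alternatives, and all 3 were tested on simulated data. Exon lengths and overlaps came from GENCODE M21, promoters from RefSeq. Named genes are all members, Pparg, up to 3 called genes per list and comparison (fewer are described) and for each member its 2 most similarly ranked genes (some are described). Members and lists were chosen with earlier results of these data known. Binding data were not analysed here. Some of the similarly ranked genes are not reported here.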

Additional observations from a re-analysis of the deposited data

Results flagged for a closer look

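In 9 of 72 sets of 5 mice, the highest or lowest mouse stood apart from the other 4 by Dixon's criterion (gap over range above 0.71), which chance alone meets in about 1 in 20 sets. KO Pio mouse 13 gave 3 of them, with Pnpla2 at 279.6, Lipe at 41.9 and Lipa at 52.8 CPM, where the other KO Pio mice had 86.1 to 99.3, 10.2 to 15.8 and 246 to 264 CPM. WT control mouse 831 gave 2, with Mgll at 285 CPM (others 164 to 179) and Lipa at 199.7 CPM (others 151 to 159). Lpl stood apart in WT control mouse 832, at 63.4 CPM (others 7.24 to 16.6), and in KO Pio mouse 12, at 56.8 CPM (others 14.9 to 26.5). G0s2 was at 207 CPM in WT HFD mouse 828 (others 83.8 to 109). Lipc was at 67.3 CPM in KO HFD mouse 9 (others 126 to 135).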

How the results depend on the processing

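No paired analysis was possible because the groups compared share fewer than 2 mouse numbers. The number of members called was computed again under 45 alternatives. Without the filter on low counts it was 0 for WT Pio against control and 0 for WT HFD against control. With 1 genotype fitted alone it was 0 for WT Pio against control, 2 for WT HFD against control and 0 for KO Pio against control. DESeq2 called 2 members for WT HFD against control, 1 for the KO minus WT Pio effect on control diet and 1 for the KO minus WT HFD effect. Limma with sample weights called 4 for WT Pio against control, 2 for WT HFD against control, 4 for WT HFD-Pio against Pio, 3 for KO Pio against control, 1 for KO HFD-Pio against Pio, and 1 each for the KO minus WT Pio effect on control diet and HFD effect. With each of 40 mice left out in turn, the numbers ranged from 0 to 3 for WT Pio against control and for KO Pio against control, 0 to 2 for WT HFD against control and the KO minus WT Pio effect on control diet, and 0 to 1 for WT HFD-Pio against HFD, WT HFD-Pio against Pio, KO HFD-Pio against Pio and the KO minus WT HFD effect. In the other 5 comparisons they stayed at 0. For KO Pio against control, Pnpla2 and Lipe also lost their calls when any KO control mouse was left out. Of 117 log2 fold changes of members (9 in each of 13 comparisons), 39 changed sign under at least 1 alternative, in 116 of 5238 values. Of the 25 with an unadjusted p under 0.05, 0 did. Among those in the report, with mice left out in turn, Lpl ranged from -0.10 (without mouse 12) to 0.84 for KO Pio against control, from -0.016 (without KO HFD mouse 6) to 0.42 for KO HFD-Pio against HFD, and from -1.23 to 0.19 (without WT HFD mouse 827) for the WT Pio effect on HFD minus on control diet. The KO minus WT Pio effect on control diet ranged from -0.23 (without mouse 13) to 0.37 for Pnpla2, and was -0.065 with limma, and from -0.17 (without mouse 13) to 0.54 for Lipe. Pnpla2 in WT HFD-Pio against HFD ranged from -0.21 to 0.10 and was 0.055 with limma. Lipa ranged from -0.021 to 0.084 in WT HFD against control (-0.015 without the filter), from -0.096 to 0.056 in WT HFD-Pio against Pio (0.038 with limma), from -0.18 to 0.17 in KO Pio against control (0.14 with limma), from -0.022 to 0.10 in KO HFD-Pio against HFD, and from -0.31 to 0.029 in KO HFD-Pio against Pio. The causes were not tested. Members had at least 69 counts in every library, and an effect of depth on the calls was not tested.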
